A study of Citrus unshiu with 6 samples.

Results

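The genes described here are the 7 that the study of Satsuma mandarin (Citrus unshiu) peel calls GID1e1 (Cs5g34000), GID1b1 (Cs8g05610), GID1b2 (Cs7g05330), GID1 (Cs8g05590), GID1e2 (Cs5g34010), GID1c (Cs5g19100), and GID2 (Cs3g23040). They were chosen by these identifiers and make up 7 of the 23099 genes in the expression table. Peel RNA was sequenced from control fruit (CK) and from fruit with roughing disorder (RD), in which the peel is thick and rough, at 30, at 80, and at 170 DAFB (days after full bloom). These days stand for the stages of cell division, cell enlargement, and fruit maturity, and the groups are named CK30, CK80, CK170, RD30, RD80, and RD170. RD fruit came from trees that had been stripped of most fruit at fruit set, with upward fruit left on them, and CK fruit from trees that kept theirs, all of the cultivar "Yamashitabeni wase" grafted on trifoliate orange. Disorder, tree, fruit load, and fruit position therefore cannot be told apart.

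Each group had 1 library, made from a pool of peel samples, so values carry no SD and no p, and every difference is one between 2 pools. Expression is given as FPKM, fragment numbers scaled to transcript length and to the mapped reads of the library, which allows levels to be compared between genes. A gene was counted as higher or lower when the FPKM ratio was at least 2-fold and the higher library had an FPKM of at least 1. The reads behind each value are unknown, because the table holds neither counts nor transcript lengths. The summed FPKM lay between 587201 and 628627 per library, and between 20339 and 20997 genes were above 0. In RNA from whole peel, a lower share of expressing cells and less transcript per cell cannot be told apart.

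Gibberellins are growth hormones of plants that promote cell elongation, fruit set, and fruit growth. In rice and Arabidopsis, the soluble receptor GID1 binds gibberellin and then takes hold of DELLA proteins, which restrain growth. GID2 of rice, known as SLEEPY1 in Arabidopsis, is the F-box subunit of a ubiquitin ligase that marks the captured DELLA protein for breakdown. GID1 has the fold of hormone-sensitive lipases and belongs to the same protein family as the plant carboxylesterases, but has no known esterase activity of its own.

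The descriptions in the table did not name any of the 7 genes a gibberellin receptor. GID1b1, GID1b2, GID1e2, and GID1c had as best protein match a probable carboxylesterase, numbered 12, 17, 2, and 18 respectively, and GID1e1 a 2-hydroxyisoflavanone dehydratase, an enzyme of the same family. The best matches of GID1 and GID2 were hypothetical proteins. No other gene in the table was described as a gibberellin receptor, GID1, GID2, SLEEPY, or SNEEZY either. The names GID1 and GID2 are thus used below as the study gives them, and receptor function was not measured.

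Of the 6 GID1 genes, 4 fall in a pair of neighbouring groups by their identifiers: GID1e1 and GID1e2 follow each other on chromosome 5, and GID1 and GID1b1 lie close together on chromosome 8. The primers designed by the study for these 4 genes are given because they are the sequences at hand for these neighbouring copies. They were compared with each other, not with the genes, and are written from 5′ to 3′.
GID1e1 forward: gagaaagacccgatactgaa
GID1e1 reverse: acacgcctctattccttag
GID1e2 forward: ttccgctcctcgttcacta
GID1e2 reverse: gggcaagcctataatcaatgga
GID1 forward: aacatcgcacacactctg
GID1 reverse: accacatctcatcgtcctc
GID1b1 forward: tgtccaagtagcacaagtg
GID1b1 reverse: cattctccgcaacaaatacc
Among the 14 primers of the 7 genes, the longest run of bases that primers of different genes had in common, in either orientation, was 7 bases, with primers of 18 to 22 bases. The study ran quantitative PCR on replicate peel samples with its primers, and those values were not analysed here.

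At 30 DAFB, each of the 7 genes exceeded its control value by 2-fold or more in RD peel, and the GID1 genes differed more than GID2. GID1e1 measured 0.27 FPKM in CK30 against 4.73 in RD30, a 17.5-fold difference from a control value close to 0. GID1b1 had 1.36 and 15.0, a log2 ratio of 3.46. GID1b2 had 0.74 and 5.59 (7.55-fold). These 3 genes and GID1, with 0.90 in CK30 and 6.47 in RD30 (7.19-fold), were weakly expressed in the young control peel. GID1e2 and GID1c, the GID1 genes with the highest levels in CK30, differed less by fold. GID1e2 had 4.17 and 21.7 (5.21-fold), and GID1c had 5.23 and 18.5 (3.54-fold). For GID1e2 that order depended on the low control values of the other genes. With 1 added to each FPKM, its log2 ratio was 2.14, above those of GID1 (1.98) and GID1b2 (1.92). GID1e1 then had 2.17, GID1b1 2.76, and GID1c 1.65. GID2 had 29.9 in CK30 and 61.0 in RD30, a log2 ratio of 1.03 just past the 2-fold limit.

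The study had picked these genes because they differed in these same libraries at 30 DAFB, so the count of 7 is not independent evidence of its direction. Of all 17419 genes compared at this stage, 25.6% were at least 2-fold higher and 6.34% lower in RD30. The median log2 ratio was 2.85 over the 7 genes and 0.43 over the 15762 genes with an FPKM of at least 1 in both libraries. These are unlike sets, because GID1e1, GID1b2, and GID1 were under an FPKM of 1 in CK30 and are not among the 15762. Relative to that median of all genes, GID2 had a log2 ratio of 0.59 and was no longer 2-fold higher, whereas the 6 GID1 genes had 1.39 (GID1c) to 3.70 (GID1e1). On that scale 13.9% of all genes were higher, and higher genes made up 56.4% of the genes that differed instead of 80.2%. Markers of green cells, the 7 genes of chlorophyll a-b binding proteins, summed to 4833 FPKM in CK30 against 9912 in RD30, where 6 and 7 of them had an FPKM of at least 1 and 1 was at 0 in CK30. At 80 DAFB that sum was 12876 in CK peel against 11943 in RD peel, and at 170 DAFB 125 against 1201. Cs2g03780 made up most of the sum at 30 DAFB, with 4395 in CK peel and 8291 in RD peel (1.89-fold). At that stage 6 of the 7 green cell genes passed the 2-fold limit upward in RD peel and 0 downward. These counts were the same with the median of all genes subtracted. At 30 DAFB, the markers of oil glands, 10 genes of limonene synthase, summed to 317 in CK peel and 713 in RD peel. The 8 cuticle genes summed to 48.4 and 68.9. Each list had 4 or 5 genes at an FPKM of at least 1 and 1 to 3 at 0. Of 5 genes compared in each list, 2 were at least 2-fold higher and 1 was lower. After subtracting the median of all genes, 0 were higher and 1 was lower in each of these lists. The 3 seed genes summed to 7.83 and 10.8, with 1 of them, an oleosin, at an FPKM of at least 1. The part of these cell types of peel, and of seed, in the difference was not tested.

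**Figure D1:**
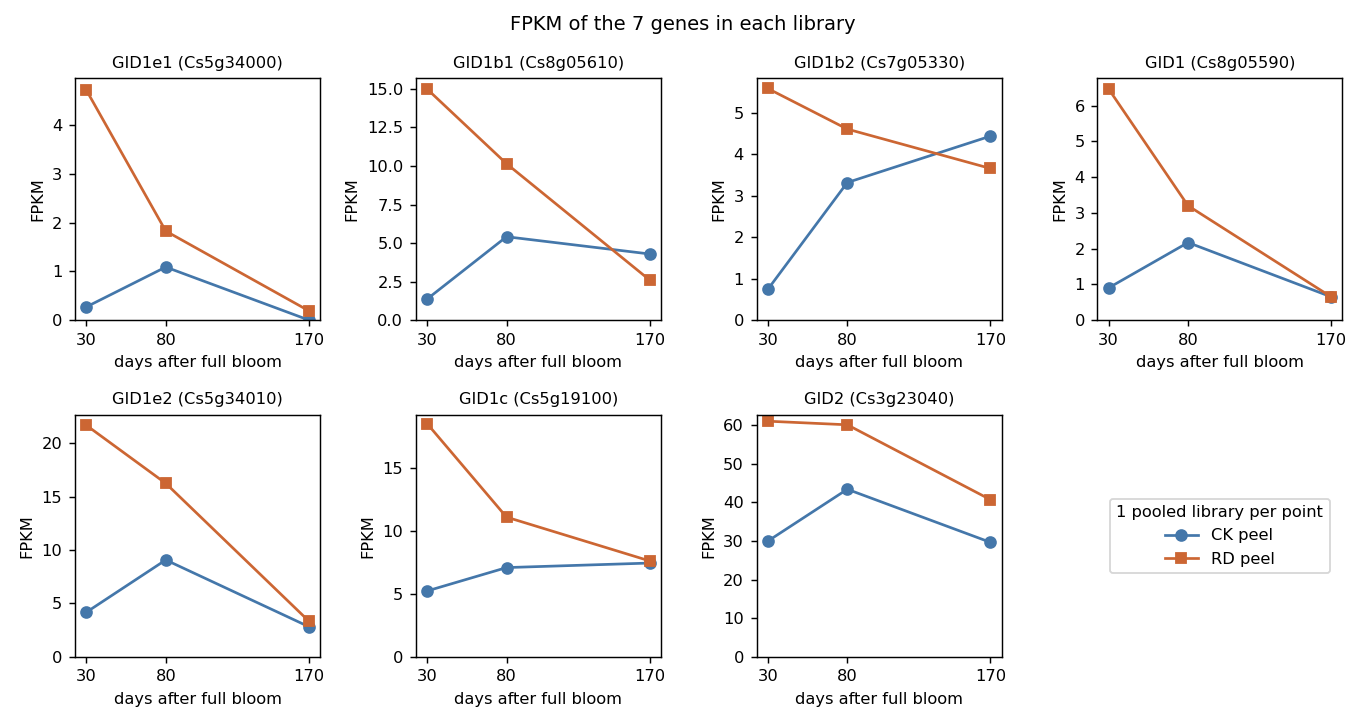
FPKM (vertical axis, from 0, with its own scale for each gene) of the 7 genes against days after full bloom, with circles for CK peel and squares for RD peel and 1 pooled library per point. RD peel had its highest value at 30 DAFB in all 7 genes, CK peel had its lowest value at that stage in 3 of them, and RD peel lay above CK peel at 30 and 80 DAFB throughout.

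At 80 DAFB, the 7 genes had higher FPKM in RD peel again, by less than 2-fold in each. The largest ratios were those of GID1b1, with 5.41 in CK80 and 10.2 in RD80 (1.88-fold), and of GID1e2, with 9.08 and 16.3 (1.79-fold). GID1e1 had 1.09 and 1.83 (1.68-fold), GID1c had 7.09 and 11.1 (1.57-fold), and GID1 had 2.17 and 3.20 (1.47-fold). The smallest were those of GID1b2, with 3.32 and 4.61 (1.39-fold), and of GID2, with 43.4 and 60.1 (1.38-fold). Thus 0 of 7 reached the 2-fold limit in either direction, where 5.2% of 17402 genes were higher and 4.86% lower. The median log2 ratio was 0.65 over the 7 genes and 0.09 over all genes, and a ratio above 1 was found in 7 of the 7 and in 62.3% of all genes. Each of the 7 ratios exceeded those of at least 83.6% of the genes compared. The genes were not picked for this stage, but no spread between pools is known against which such ratios could be judged. The 7 stayed above 1 relative to the median of all genes, to the upper quartile, and to Cs7g28810, the gene the study used as ACTIN reference.

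At 170 DAFB, the peels were close in most of the 7 genes, and 0 of 7 was 2-fold higher or lower. GID2 was the gene with the largest ratio in favour of RD peel, with 29.6 in CK170 and 40.7 in RD170 (1.37-fold). GID1e2 had 2.82 and 3.34, GID1c had 7.45 and 7.62, and GID1 had 0.65 in each peel. GID1b1 turned to the other side, with 4.29 in CK170 and 2.60 in RD170, and so did GID1b2, with 4.44 and 3.66. GID1e1 was listed at 0 in CK170 and at 0.19 in RD170, and no fold is given for it. With GID1e1 and GID1 under an FPKM of 1 in both peels, 5 of the 7 genes could be counted at this stage. Over all 17143 genes, 8.14% were at least 2-fold higher and 10.1% lower. A ratio above 1 was found for 3 of the 5 genes that could be counted and for 41.3% of all genes, and one below 1 for 2 and for 58.5%. The median log2 ratio was 0.02 over the 6 genes with a ratio, GID1 included. It was -0.11 over all genes with an FPKM of at least 1 in both libraries. The sign was preserved under the other scalings for GID1b1, GID1b2, GID1e2, and GID2, while GID1c, at 0.03, had -0.05 when scaled to ACTIN. GID1, at 0.00, had 0.11 relative to the median of all genes, 0.12 relative to the upper quartile, and -0.08 relative to ACTIN.

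**Figure D2:**
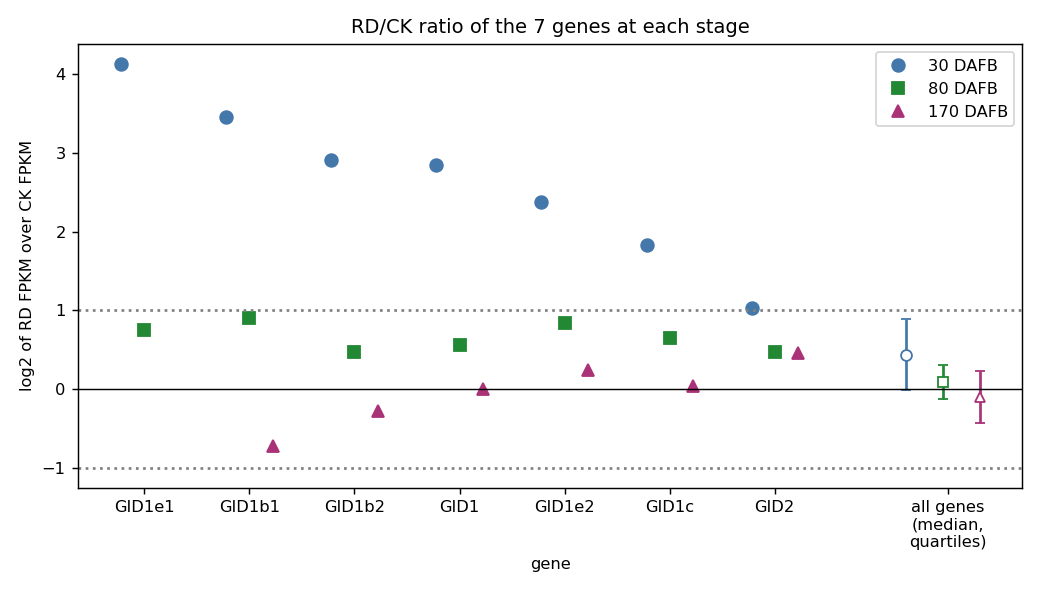
log2 of the RD over CK FPKM ratio (vertical axis) for each of the 7 genes at 30, 80, and 170 DAFB, with dotted lines at 2-fold. Open symbols at the right give the median and the quartiles of all genes with an FPKM of at least 1 in both libraries. Ratios at 30 DAFB run from 1.03 (GID2) to 4.13 (GID1e1), those at 80 DAFB from 0.47 to 0.91, and those at 170 DAFB from -0.72 to 0.46, with none for GID1e1.

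From 30 to 80 DAFB, the 7 genes went up in CK peel and down in RD peel. The study had picked them for their difference at 30 DAFB, and that choice favours such opposite steps. The shares of all genes below come from genes not picked in this way, so they are not a like-for-like background. In CK peel, 5 rose at least 2-fold, namely GID1b2 (4.49-fold), GID1e1 (4.04-fold), GID1b1 (3.98-fold), GID1 (2.41-fold), and GID1e2 (2.18-fold), as did 23.4% of all 17387 genes compared, while 0 of 7 and 9.06% fell. A ratio above 1 was found for 7 of 7 and for 67.7%. GID1c and GID2 had CK80 over CK30 ratios of 1.36 and 1.45. In RD peel, GID1e1 fell 2.58-fold and GID1 2.02-fold, and 9.44% of 17794 genes fell as much, while 0 of 7 and 7.15% rose. A ratio below 1 was found for 7 of 7 and for 51.4%. The RD80 over RD30 ratios of GID1c, GID1b1, GID1e2, and GID1b2 were 0.599, 0.677, 0.749, and 0.825. For GID2 the ratio was 0.985, and scaled to ACTIN its log2 ratio turned from -0.02 to 0.16. A value that was higher in CK80 than in CK30 and lower in RD80 than in RD30 was found in 27.5% of 18165 genes, and 15.1% also had higher values in RD peel at both stages, as the 7 genes did. Relative to the median of all genes, which was 0.31 between CK30 and CK80, only GID1e1, GID1b1, and GID1b2 rose 2-fold in CK peel, as did 16.3% of all genes, although the other 4 kept log2 ratios above 0. Rises then made up 55.5% of all calls in that step instead of 72.1%.

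Several of the 7 genes had low values in CK30. When RD30 was set against the older control library CK80, all 7 genes still had higher values in RD30, by 1.41-fold (GID2) to 4.34-fold (GID1e1), and 5 of them by at least 2-fold. Of all 17791 genes compared, 57.0% had higher values in RD30 and 12.7% were at least 2-fold higher, and the 7 had been picked for their difference in RD30. The 2 that did not reach it were GID2 and GID1b2 (1.68-fold). As these libraries differ in stage as well as in peel, the ratio is a description only.

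From 80 to 170 DAFB, the genes parted into those that fell in both peels and those that did not. GID1e1 was down to 0 in CK170 and fell 9.63-fold in RD peel. GID1 fell 3.34-fold in CK peel and 4.92-fold in RD peel, and GID1e2 fell 3.22-fold and 4.87-fold. GID1b1 kept 4.29 of 5.41 in CK peel but fell 3.90-fold in RD peel, from 10.2 to 2.60. In all, 3 of 7 fell in CK peel and 4 of 7 in RD peel, where 17.5% of 17703 and 17.7% of 17601 genes fell. None of the 7 rose, against 14.8% of all genes in CK peel and 8.77% in RD peel, and a ratio below 1 was found in RD peel for 7 of 7 and for 52.9%. GID1b2, GID1c, and GID2 were not 2-fold apart between these stages in either peel. Their CK170 over CK80 ratios were 1.34, 1.05, and 0.683, and their RD170 over RD80 ratios 0.794, 0.686, and 0.677. When scaled to ACTIN, whose FPKM went from 192 to 303 in CK peel and from 189 to 321 in RD peel, all 7 genes fell at least 2-fold in RD peel, and in CK peel GID2 fell too while GID1b2 and GID1c had log2 ratios of -0.24 and -0.59. On that scale 40.1% of all genes fell at least 2-fold in RD peel and 29.6% in CK peel.

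By level, GID2 was the most abundant of the 7 genes in every library, and GID1e1 the least abundant. GID2 stood above 78.4% to 91.8% of the genes with an FPKM above 0. Among the GID1 genes the first place changed between GID1c and GID1e2. GID1c led in CK30, CK170, and RD170, and GID1e2 in CK80, RD30, and RD80, where GID1e2 and GID1c had 9.08 and 7.09, 21.7 and 18.5, and 16.3 and 11.1. GID1b2 came last but one among all 7 in the libraries of 30 DAFB and just after GID1c in those of 170 DAFB. With 1 library per group, it is not known which neighbours in this order differ beyond the spread between pools.

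The 6 GID1 genes together had a summed FPKM of 12.7 in CK30, 28.2 in CK80, and 19.7 in CK170. In RD peel the sum was 72.0, 47.2, and 18.1 at the same stages. RD peel thus had 5.69 times the CK sum at 30 DAFB, 1.67 times at 80 DAFB, and 0.919 times at 170 DAFB. GID1c, GID1e2, and GID1b1 accounted for 74.1% to 84.9% of the sum in each library. The FPKM of GID2 was 2.36 times the GID1 sum in CK30 but 0.847 times in RD30, the only library in which the 6 genes together exceeded GID2. At 170 DAFB it was 1.51 times the sum in CK peel and 2.25 times in RD peel.

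**Figure D3:**
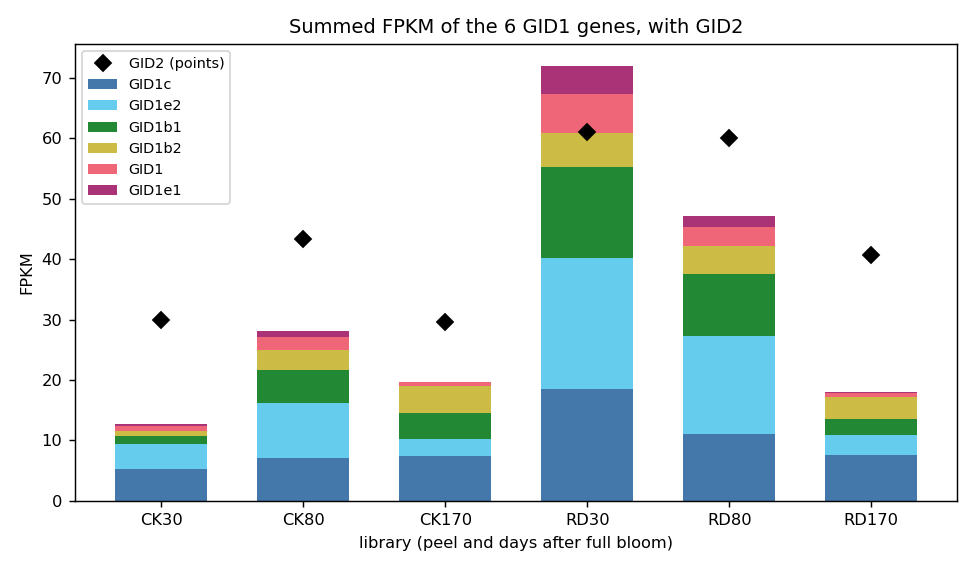
Summed FPKM of the 6 GID1 genes (stacked bars, from 0) and FPKM of GID2 (diamonds) in each of the 6 libraries. The bars run from 12.7 in CK30 to 72.0 in RD30, and only in RD30 does the bar exceed the diamond.

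The carboxylesterase family as the table describes it, with the 2-hydroxyisoflavanone dehydratases, counted 41 genes besides the GID1 genes. Of the 23 that could be compared at 30 DAFB, 9 passed the 2-fold limit upward in RD peel, 2 downward, and 12 neither way, with a median log2 ratio of 0.86, where 25.6% of all genes were higher and 6.34% lower. After subtracting the median of all genes, 4 of the 23 were higher and 2 lower, against 13.9% and 10.8% of all genes. The counts were 4 higher and 1 lower among 25 genes at 80 DAFB, and 6 in each direction among 29 at 170 DAFB, beside 5.2% and 4.86% of all genes at 80 DAFB and 8.14% and 10.1% at 170 DAFB. A 2-hydroxyisoflavanone dehydratase (Cs9g06450) was the most abundant by mean level and had its highest values in ripe peel, with 418 in CK170 and 151 in RD170, against 0.21 in CK30 and 0.48 in RD30. Probable carboxylesterase 15 (orange1.1t04182) had 80.8 in CK30 against 36.9 in RD30 and was thus lower where the GID1 genes were higher. It was lower in RD peel at 170 DAFB as well, with 184 in CK170 and 74.95 in RD170. Probable carboxylesterase 12 (Cs8g05620), next in order to GID1b1, went from 42.9 to 65.1 in CK peel and from 54.5 to 66.8 in RD peel, with 56.9 and 76.7 midway, and differed by less than 2-fold at every stage. The list also holds senescence-associated carboxylesterases, taken up by their description and not by relation to GID1.

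**Figure D4:**
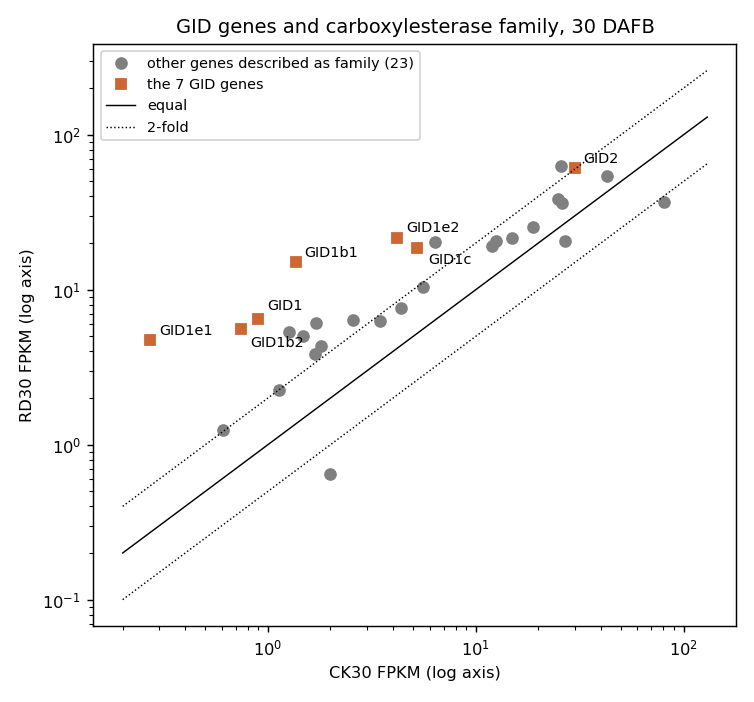
FPKM in RD30 against FPKM in CK30, on log axes, for the 7 GID genes (squares) and the 23 other genes described as carboxylesterase family with an FPKM of at least 1 in either library (circles). The solid line marks equal values and the dotted lines 2-fold, and the 6 GID1 squares lie above the upper dotted line at ratios of 3.54 to 17.5.

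Some neighbours of the GID1 genes had the same direction at 30 DAFB. Before GID1e1 on chromosome 5, a 2-hydroxyisoflavanone dehydratase (Cs5g33970) had 1.70 in CK30 and 6.12 in RD30. A probable carboxylesterase 5 (Cs5g33980) had 1.26 and 5.35, and another (Cs5g33990) 1.81 and 4.34, so these 3 genes were 3.60-, 4.25-, and 2.40-fold higher. At 80 DAFB their log2 ratios were 0.26, 0.43, and 0.22, below those of GID1e1 (0.75) and GID1e2 (0.84). The genes after GID1e2 went the other way, with 10.9 and 3.87 for Cs5g34030, which has no described function, and 212 and 134 for the RNA-binding protein Cs5g34040. On chromosome 8, the carboxylesterase Cs8g05570 had 1.47 in CK30 and 5.05 in RD30 (3.44-fold), the extensin-like Cs8g05560 had 1.12 and 0.34, and the protease Cs8g05640 had 4.34 and 3.81. Cs8g05630, another carboxylesterase, was listed at 0 in CK30 and at 0.43 in RD30. Further out, genes outside the family were also higher in RD30, namely Cs5g33900 (2.52-fold), Cs8g05540 (2.18-fold), and Cs8g05550 (3.03-fold). The family genes Cs5g33920 (1.88-fold), Cs5g33940 (1.66-fold), and Cs8g05670 (1.56-fold) stayed under 2-fold. These further genes were named after their values were seen. Besides the GID1 genes, 3 of 5 compared family genes in this stretch of chromosome 5 and 1 of 3 in that of chromosome 8 were higher. In the stretches around GID1c and GID1b2 it was 1 of 2 and 1 of 1. The higher gene near GID1c, probable carboxylesterase 18 (Cs5g19190), had 6.39 in CK30 and 20.3 in RD30 (3.18-fold). It was also named after its values were seen. Of all genes, 25.6% were higher.

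**Figure D5:**
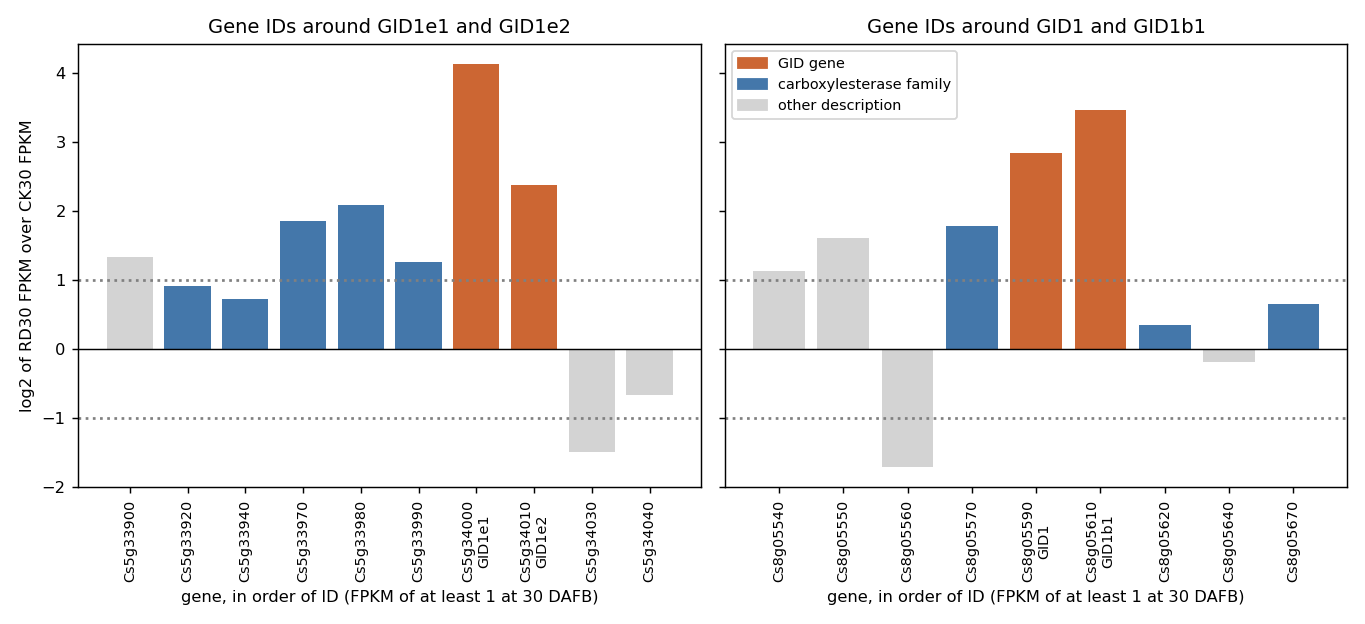
log2 of the RD30 over CK30 FPKM ratio for genes with an FPKM of at least 1 in either library, in order of identifier around GID1e1 and GID1e2 (left) and around GID1 and GID1b1 (right), with dotted lines at 2-fold. GID genes are orange, other genes described as carboxylesterase family blue, and the rest grey. The highest bar on the left is GID1e1 (4.13) and on the right GID1b1 (3.46). The stretches shown are wider than those fixed for naming and were widened after the values were seen.

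GID1b2 and GID2 each shared their best protein match with another gene, so the division of reads between copies is uncertain. Cs7g05320, next to GID1b2, had the same best match as GID1b2 and read 2.58, 5.90, and 7.27 FPKM over the CK stages against 6.39, 7.71, and 10.98 over the RD stages. Summed over both genes, RD peel had 3.61 times the CK value at 30 DAFB, 1.34 times at 80 DAFB, and 1.25 times at 170 DAFB, where GID1b2 alone had 7.55, 1.39, and 0.824. The ratio below 1 at 170 DAFB was thus not found in the sum. The gene orange1.1t06058 shared the best match of GID2, by a much weaker alignment, and had 5.11 in CK30 and 7.31 in RD30 (1.43-fold). These 2 genes were picked out after the data were seen.

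Genes described or named as partners and targets of gibberellin receptors went both ways. Among DELLA genes, the repressors that GID1 captures, a list of 13 was made up of the genes described as DELLA and those that the study names so. At 30 DAFB 8 of them could be compared, 6 higher and 2 lower, where 25.6% of all genes were higher and 6.34% lower. The 2 lower ones were DELLA7 (Cs2g01990), with 502 in CK30 and 151 in RD30, and DELLA8 (Cs4g12130), with 404 and 88.1. Neither was described as DELLA in the table: DELLA7 had a scarecrow-like protein as best match, of the wider GRAS family, and DELLA8 a hypothetical protein. The same holds for DELLA2, DELLA4, DELLA5, and DELLA6 among the higher genes. DELLA2 and DELLA4 had hypothetical proteins as best match, DELLA5 a scarecrow-like protein, and DELLA6 a SHORT-ROOT-like protein. Of the genes with a DELLA description, those expressed at an FPKM of at least 1 were higher. The GAI-like Cs6g17530 went through 5.92, 22.6, and 13.1 over the CK stages and through 51.3, 61.1, and 18.8 over the RD stages. The GAIP-B-like Cs2g16940, named after its values were seen, went through 13.8, 24.8, and 7.85 and through 32.8, 32.6, and 10.8. The RGL1-like DELLA1 (orange1.1t03259) stayed under an FPKM of 1 throughout, with 0.04 in CK30 and 0.81 in RD30. As with the GID genes, the study chose its DELLA genes among those that differed in these libraries at 30 DAFB. DELLA2 (Cs2g22130) had 0.20 in CK30 and 2.98 in RD30, DELLA4 (Cs1g24030) 8.10 and 28.0, DELLA5 (Cs7g32390) 3.96 and 12.0, and DELLA6 (Cs1g21500) 0.93 and 2.39.

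Genes that make gibberellin included 6 that could be compared at 30 DAFB, 3 of them higher and 0 lower. Among all genes, 25.6% were higher and 6.34% lower at that stage, a share that applies to each list below. The ent-kaurene oxidase orange1.1t01909, of an early step, had 7.85 in CK30 and 8.83 in RD30, whereas orange1.1t01910, with the same description, had 9.21 and 25.9 (2.81-fold). The ent-kaurenoic acid oxidase Cs1g02670, of the next step, had 5.61 and 9.22. The other higher genes, named after their values were seen, were the gibberellin 20 oxidase Cs5g03520, with 0.85 and 2.67, and the ent-copalyl diphosphate synthase Cs5g15530, with 3.20 and 7.81. Of the enzymes that inactivate gibberellin, 1 was higher and 1 lower of 2 compared. The 2-beta-dioxygenase Cs2g07550 was higher, with 0.43 in CK30 against 27.6 in RD30, while Cs9g01770 was lower, with 36.9 and 16.0. Cs6g09810 had 0.15 and 0.60 and could not be counted. Gibberellin-regulated peptides, a family of small secreted proteins, had 1 higher and 1 lower gene among 8 at the first stage, and 4 higher and 1 lower among 7 at maturity. At maturity 8.14% of all genes were higher and 10.1% lower. The most abundant genes of these peptides had ratios of 1.88 (Cs3g26100), 1.48 (Cs3g15690), and 1.07 (Cs6g20220) at 30 DAFB. Another list held ubiquitin ligase subunits that work with F-box proteins such as GID2 of rice. In it, SKP1-like Cs2g08495 had 2.58 in CK30 against 7.30 in RD30, and the more abundant SKP1-like Cs9g17620 had 9.22 and 11.8. The SKP1-like orange1.1t00373 had 0.26 and 0.79, too low to be counted. The cullin Cs6g14470, outside the naming rule, measured 1.25 and 2.65. In all, 2 of 3 were higher at 30 DAFB, and 0 of 4 was higher or lower at either later stage. At 80 DAFB 5.2% of all genes were higher and 4.86% lower. Of other regulators of DELLA activity, SPINDLY (Cs6g14220), which modifies DELLA proteins, had 16.2 and 20.7. The transcription factor PIF4 (Cs7g18810), which DELLA proteins bind, had 0.66 and 1.64 (2.48-fold). With the median of all genes subtracted, synthesis had 2 higher and 0 lower members at 30 DAFB, DELLA genes 4 and 2, the ubiquitin ligase subunits 1 and 0, and SPINDLY and PIF4 were neither higher nor lower. On that scale 13.9% of all genes were higher and 10.8% lower.

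The 7 genes differed among themselves in their course, and 3 of the GID1 genes were most alike. Likeness was measured as the root mean square difference of log2(FPKM + 1) over the 6 libraries, after subtracting the mean of each gene. It was 0.11 between GID1e1 and GID1, 0.25 between GID1e1 and GID1e2, and 0.26 between GID1 and GID1e2. GID1b2 and GID1e2 were least alike, at 0.90. GID2 was closest to GID1c, at 0.29. Among 7756 other genes with a named match and a mean FPKM of at least 1, those nearest to the mean course of the 7 genes were the receptor kinase BAM3 (Cs2g12040, difference 0.15), nuclear transcription factor Y subunit B-2 (Cs2g19360, 0.15), cytochrome P450 82A3 (Cs7g29900, 0.18), a pentatricopeptide repeat protein (Cs4g19900, 0.19), and a disease resistance protein (Cs1g12980, 0.19). BAM3 had 1.41, 2.65, and 1.48 over the CK stages against 5.63, 3.92, and 1.52 over the RD stages. The nearest gene to each member was a ubiquitin ligase (Cs5g24020) for GID1e1, the F-box protein SKIP28 (Cs2g17200) for GID1b1, a chloroplast translocase (Cs9g04400) for GID1b2, the same cytochrome P450 for GID1, a glycosyltransferase (orange1.1t01977) for GID1e2, an ELMO domain protein (orange1.1t00840) for GID1c, and YLS7 (Cs5g31430) for GID2. With 6 libraries and 7756 candidates, such likeness describes these pools only.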

How the data were processed

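The authors removed adapter and low-quality reads, aligned the rest to the sweet orange (Citrus sinensis) genome, and deposited FPKM per gene. The submitters' processing notes name Bowtie, BWA, and RSEM. Tool versions and the genome build were not given in the sources used here. The table lists FPKM to 2 decimals with the best protein match. No listed gene is at 0 in every library, and no column of authors' comparisons is present. Column names match the sample titles. Ratios and calls (2-fold, FPKM of at least 1 in the higher library) were computed here with Python 3.11.15, pandas 2.3.3, and numpy 2.4.6, without a pseudocount except in likeness. The call rule was tested on simulated data. The FDR test on reads that the study used needs reads per gene and was not run. The alternatives were other scalings (median of all genes, upper quartile, ACTIN), fold limits, FPKM minimums, and a pseudocount of 1. Gene lists were made by description. The named genes were the 7 genes, the study's DELLA genes, the 3 most abundant members of each list, the neighbours of both gene pairs, ACTIN, and the genes nearest in course. Other genes named are marked as picked after their values were seen or as outside this rule. Members, lists, and rules were chosen with earlier results of these data known. Primer sequences are those of the study. The available gene table is of another assembly (CUMW_v1.0 of Citrus unshiu) with other identifiers, and was not used.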

Additional observations from a re-analysis of the deposited data

Results flagged for a closer look

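The 7 genes had opposite steps from 30 to 80 DAFB in the 2 peels, upward in CK peel and downward in RD peel. The difference of the steps (log2, CK minus RD) was 3.38 for GID1e1, 2.56 for GID1b1, 2.44 for GID1b2, 2.29 for GID1, 1.54 for GID1e2, 1.18 for GID1c, and 0.56 for GID2. It equals the drop in the RD/CK log2 ratio between these stages, at the first of which the genes were picked. For GID2 the step in RD peel was -0.02 and turned positive when scaled to ACTIN.

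GID1b1 and GID1b2 were higher in RD peel at 30 DAFB and had lower values there at 170 DAFB, with log2 ratios that differed by -4.19 and -3.20 between these stages. Summed with Cs7g05320, GID1b2 had a log2 ratio of 0.32 at 170 DAFB. None of these differences was tested, because each group had 1 library.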

How the results depend on the processing

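With 1 pooled library per group, no spread of the sequencing values is known and depth per gene is unknown, so values near 0, such as those of GID1e1 in CK peel, are the least certain. Of the 112 counts of the 7 genes under other settings, 97 stayed within 1.5 times the reported count. Most of the reported counts were 0 and few of those moved, so this total says little about the counts above 0. At 30 DAFB the count of 7 higher genes became 6 when scaled to the median gene or the upper quartile, where GID2 had log2 ratios of 0.59 and 0.77. That count was 5 with a fold limit of 4 and 6 with an FPKM of at least 5. With a fold limit of 1.5, 4 genes were higher at 80 DAFB and 1 was lower at 170 DAFB. Without an FPKM minimum, 1 was higher at 170 DAFB (GID1e1, listed at 0 in CK170). The count of rises from CK30 to CK80 was 5, and 3 when scaled to the median gene, and 2 with a fold limit of 4, an FPKM of at least 5, or a pseudocount of 1. From CK80 to CK170 the count of falls was 1 instead of 3 with a fold limit of 4 or an FPKM of at least 5. From RD30 to RD80 it was 1 instead of 2 when scaled to ACTIN, with an FPKM of at least 5, or with the pseudocount, and 0 with a fold limit of 4. From RD80 to RD170 it was 7 instead of 4 when scaled to ACTIN and 2 with an FPKM of at least 5. With the pseudocount, the log2 ratio of GID1e1 at 30 DAFB went from 4.13 to 2.17, still past the 2-fold limit. Of 83 single log2 ratios, 76 kept their side of the 2-fold limit and their sign. The others were those of GID2 at 30 DAFB (above), of GID1 at 170 DAFB (0.00, but 0.11 and 0.12 when scaled to the median gene and the upper quartile and -0.08 when scaled to ACTIN), of GID1c at 170 DAFB (-0.05 when scaled to ACTIN), and of GID1b2 at 170 DAFB (0.32 when summed with Cs7g05320, an alternative chosen after seeing the data). Causes were not tested. No paired analysis was possible because the labels give no replicate numbers that pair libraries. A fit with the 3 stages as pairs, which would treat stages as replicates, was not run.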
